A study of Homo sapiens with 12 samples.

Results

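The MAGE family (melanoma antigen genes) was followed across HEK293T cells and R1, a methionine-independent clone obtained from that line. Members were all rows of the deposited count table whose gene symbol begins with MAGE and a subfamily letter A, B, C, D, E, F, H, L or I followed by a number, with the row of the highest summed count kept for each symbol. This gave 35 genes from 36 rows, out of 23500 genes listed, with 26 in subfamilies A, B and C and 9 in D, E, F, H and L. The family was chosen by the levels of MAGEC2, which had been seen to be high in R1, so levels in R1 against levels in HEK293T are given as a description and are not tested. The response to a change of medium was tested in each line and compared between them.

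RNA was measured in 12 libraries, 3 in each of 4 groups. HEK293T is a human kidney line of embryonic origin that is widely used because it takes up plasmids readily, and R1 was derived from it by growth in homocysteine. Both lines were sampled 12 h after a change to medium with methionine (+Met) or to medium with homocysteine, its metabolic precursor, in place of methionine (−Met+Hcy). R1 is 1 clone, so what R1 cells share cannot be told apart from what belongs to this clone, and in the labels of its libraries the title says R1 while the cell line field says HEK293T. The total count of a library ran from 12664158 to 18771349. All 7 markers of HEK293 cells were detected, with VIM as the most abundant and a summed level of 510 to 1061 CPM, where CPM is a gene's count scaled to the total count of its library. Of 6 germ cell markers, DAZL, PRM1, PRM2 and TNP1 were at 0 in all 12 libraries, and the 6 summed to at most 1.55 CPM.

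MAGE proteins share the MAGE homology domain, through which many of them bind a RING-type E3 ubiquitin ligase and steer it to particular substrates. Genes of subfamilies A, B and C lie on the X chromosome and are normally read in the testis, are silenced by promoter DNA methylation in most other tissues, and are often switched on again in tumours, which is why they are called cancer-testis genes. Genes of subfamilies D, E, F, H and L are read in many tissues. In the annotation used here 33 of the 35 members lay on chromosome X, with MAGEF1 on chromosome 3 and MAGEL2 on chromosome 15.

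The 250 bases before the start of 4 members are printed because the results turn on these genes: MAGEC2 and MAGEA12, the members with the highest levels in R1 among A, B and C, and MAGEF1 and MAGEB18, the members called for a response to medium. The sequences are from RefSeq (GRCh38.p14), are written 5′ to 3′ on the strand of the gene and carry each CpG, the dinucleotide at which DNA methylation occurs, in capitals. MAGEC2 is read from the minus strand (chrX:142205291-142205540) and its window held 6 CpG. MAGEA12 is read from the plus strand (chrX:152733507-152733756) and held 5; RefSeq has another start for it, whose overlapping window (chrX:152733612-152733861) held 13. MAGEF1 is read from the minus strand (chr3:184712065-184712314) and held 12. MAGEB18 is read from the plus strand (chrX:26138093-26138342) and held 5.
MAGEC2: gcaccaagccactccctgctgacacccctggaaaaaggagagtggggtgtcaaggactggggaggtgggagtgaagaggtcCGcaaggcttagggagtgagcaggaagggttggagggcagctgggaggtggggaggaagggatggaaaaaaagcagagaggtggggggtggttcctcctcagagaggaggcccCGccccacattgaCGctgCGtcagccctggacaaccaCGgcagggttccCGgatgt
MAGEA12: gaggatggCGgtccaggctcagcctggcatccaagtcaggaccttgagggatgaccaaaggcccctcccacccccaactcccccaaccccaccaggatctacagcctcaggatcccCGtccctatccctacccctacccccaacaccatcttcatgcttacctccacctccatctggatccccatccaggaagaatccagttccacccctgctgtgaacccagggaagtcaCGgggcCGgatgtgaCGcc
MAGEF1: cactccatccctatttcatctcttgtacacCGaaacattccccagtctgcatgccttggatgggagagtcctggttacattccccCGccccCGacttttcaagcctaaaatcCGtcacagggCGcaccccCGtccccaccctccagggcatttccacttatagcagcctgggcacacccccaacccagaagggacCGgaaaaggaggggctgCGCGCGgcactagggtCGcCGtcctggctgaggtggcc
MAGEB18: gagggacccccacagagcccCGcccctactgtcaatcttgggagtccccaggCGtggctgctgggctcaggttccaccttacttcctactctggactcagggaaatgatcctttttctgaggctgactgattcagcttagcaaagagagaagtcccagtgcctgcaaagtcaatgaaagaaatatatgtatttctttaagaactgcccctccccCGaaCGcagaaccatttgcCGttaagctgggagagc

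RefSeq windows were found for 31 of the 35 symbols, 42 windows in all, since some genes have several starts. The median number of CpG was 8 in the 31 windows of A, B and C and 12 in the 11 windows of D, E, F, H and L, against 11 in all 35116 windows of the table. MAGEC2 and MAGEA12 shared CCGGATGT, a sequence of the kind that ETS factors bind and one that contains a CpG; its last base lay 1 base before the start of MAGEC2 and 7 bases before that of MAGEA12. Searched on both strands, CCGGATGT was in 18 of the 31 windows of A, B and C (58.1%), in 0 of 11 of the other subfamilies and in 0.592% of all windows. This sequence was chosen after the windows of MAGEC2 and MAGEA12 had been read, the genes of A, B and C are related copies, and holders such as MAGEB10 had 0 counts in all libraries. The related sequence CCGGAA was in the window of MAGEF1, in 5 of 42 windows of the family and in 14.5% of all windows. TGATGNAA, the form of site to which ATF4 binds with a CEBP partner, was in 1 of 42 windows, that of MAGED1, and in 3.14% of all windows.

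Library R1 −Met+Hcy replicate 3 stood apart from the others. Of the 14 members with at least 100 counts over the R1 libraries, 12 were lower in it than the mean of replicates 1 and 2, and 11 were below 0.5 of that mean. MAGEB18 and MAGEA6 were the exceptions, at 2.17 and 1.46 of that mean. Over all 13029 genes with at least 100 counts in R1, 33.98% were below 0.5 and the median ratio was 0.779, and it moved with the GC content of the transcript, from 1.30 in the 5033 genes under 45% GC to 0.220 in the 2042 genes of 60% or more. MAGEB18 has the lowest GC content of the 14 members (43.3%) and MAGEL2 the highest (61.2%), and MAGEL2 was at 0.038 of the mean of the other libraries. That ratio depends on which of the 2 MAGEL2 entries of the table is read: with both summed, a choice made after seeing the data, it was 0.266. Not all members lay near the median of all genes in their range of GC content. MAGEA10 (44.3%) was at 0.457 and MAGEB6 (46.8%) at 0.117, where those medians were 1.30 and 0.881. MAGEA6 (51.3%) was at 1.46, where the median was 0.598. The part of GC content in the members' values was not tested.

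**Figure D1:**
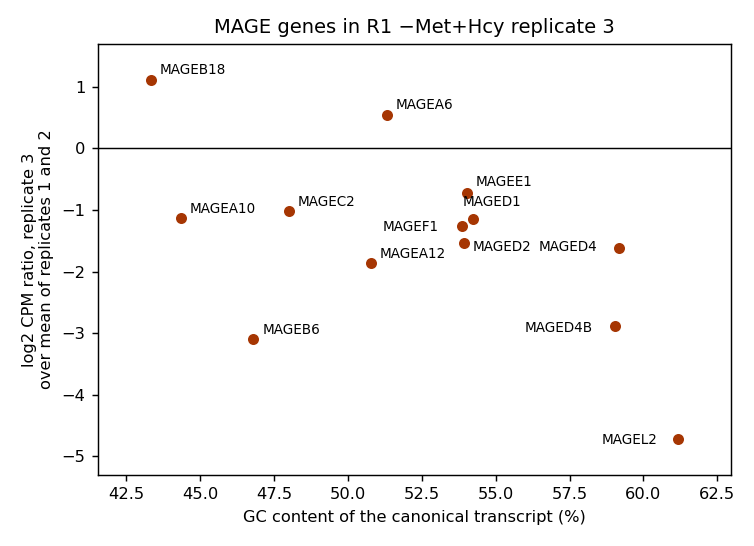
Each point is a MAGE gene with at least 100 counts over the 6 R1 libraries; the x axis is the GC content of its transcript in percent and the y axis the log2 ratio of its CPM in R1 −Met+Hcy replicate 3 to the mean of replicates 1 and 2. All but MAGEB18 and MAGEA6 lie below 0; MAGEA2, at 0 counts in replicate 3, has no ratio and is not drawn, and MAGEL2 is drawn from 1 of its 2 entries.

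The broadly expressed subfamilies held nearly all MAGE reads in HEK293T cells. In +Met the 26 genes of A, B and C summed to 3.91 ± 0.332 CPM (SD, n = 3) and the 9 genes of D, E, F, H and L to 535 ± 29.7 CPM. A, B and C made up 0.659 to 0.831% of MAGE reads in the parental line in +Met, 1.74 to 2.04% in −Met+Hcy, and 4.94 to 9.51% over the 6 R1 libraries. Their sum in R1 was 91.6 ± 25.97 CPM with methionine and 81.4 ± 41.6 CPM in −Met+Hcy (99.5 without replicate 3), and the lowest R1 library, at 45.1 CPM, lay above the highest HEK293T library, at 11.9 CPM. MAGEC2 alone gave 71.9 to 79.9% of the A, B and C reads in each R1 library. Without MAGEC2 and MAGEA12, the A, B and C sum in +Met was 3.57 ± 0.307 CPM in HEK293T and 12.9 ± 1.31 CPM in R1. In −Met+Hcy that sum was 10.05 ± 0.656 CPM in HEK293T and 12.6 ± 6.65 CPM in R1. There the lines overlapped through R1 replicate 3 alone, at 6.18 CPM.

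The sum of D, E, F, H and L in R1 in +Met was 1302 ± 78.1 CPM, 2.43 times that of HEK293T. In −Met+Hcy it was 565 ± 21.8 CPM in HEK293T and 990 ± 449 CPM in R1, where replicate 3 was at 474 CPM and the others at 1207 and 1290 CPM, a mean of 1249 CPM. The R1 and HEK293T libraries did not overlap in +Met, whereas in −Met+Hcy replicate 3 of R1 fell below all HEK293T libraries. Levels in CPM depend on the library's most abundant genes. After scaling by the trimmed mean of M-values (TMM), the median log2 ratio over all genes moved from 0.37 to 0.02 for R1 against HEK293T in +Met and from 0.32 to 0.03 for the change of medium in HEK293T, and it moved by no more than 0.03 in the other comparisons.

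**Figure D2:**
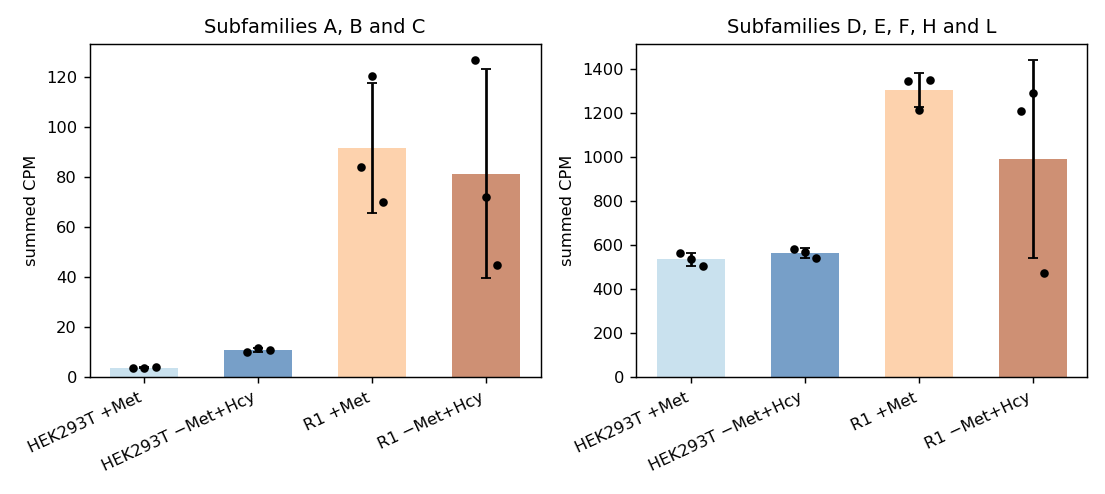
Summed CPM of the 26 genes of subfamilies A, B and C (left) and the 9 genes of D, E, F, H and L (right) in the 4 groups; bars are means, error bars SD, and points the 3 libraries of a group. The A, B and C sum is below 12 CPM in all HEK293T libraries and at least 45.1 CPM in all R1 libraries.

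MAGEC2 (ENSG00000046774, chrX:142202342-142205290) encodes a partner of the ligase TRIM28. Its count was 2, 5 and 4 in the HEK293T libraries in +Met and 9, 16 and 19 in −Met+Hcy. In R1 it was 1042, 1682 and 670 in +Met and 1283, 802 and 676 in −Met+Hcy. Each R1 library was above each HEK293T library in both media, and replicate 3 of R1 in −Met+Hcy had the lowest level of the 6 R1 libraries, at 36.0 CPM. The means were 0.238 ± 0.109 and 0.941 ± 0.310 CPM in HEK293T and 68.2 ± 20.4 and 60.8 ± 29.6 CPM in R1, for +Met and −Met+Hcy, and the last was 73.2 CPM without replicate 3. The ratio of summed counts, R1 to HEK293T, was 299.6 in +Met once each sum was divided by the total count of its 3 libraries, and the choice of the family rests on such values. In RNA from whole cultures, a high level in some of the cells and a lower one in all of them cannot be told apart.

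MAGEA12 (ENSG00000213401, chrX:152733757-152737669), another cancer-testis gene, was next. It had 2, 0 and 3 counts in HEK293T in +Met and 0, 2 and 3 in −Met+Hcy. In R1 it was at 10.4, 15.1 and 5.84 CPM in +Met and at 13.8, 7.18 and 2.88 CPM in −Met+Hcy. The lines did not overlap in either medium, and the ratio of summed counts in +Met, scaled in the same way, was 103. The other A, B and C genes were at or below 3 CPM in every library.

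The genes around MAGEC2 and MAGEA12 were read beside them. Within 1 Mb of MAGEC2, MAGEC1, MAGEC3 and the SPANX genes SPANXA1, SPANXA2, SPANXC, SPANXD and SPANXN4 were at 0 to 8 counts in each R1 library. MAGEC1, whose product is also known as CT7, was at 0.876, 0.617 and 0.245 CPM in HEK293T in +Met and at 0.348, 0.163 and 0.474 CPM in R1. These ranges overlapped. CSAG1, a cancer-testis gene on the opposite strand, is read away from MAGEA12 and has its start 22 bases before that of MAGEA12, so that most of the window printed for MAGEA12 lies within the CSAG1 gene. Its count was 1, 1 and 1 in HEK293T in +Met and 0, 0 and 1 in −Met+Hcy, and in R1 it was 24, 89 and 17 in +Met and 43, 28 and 77 in −Met+Hcy. CSAG1 was therefore above HEK293T in all R1 libraries. The genes around MAGEA12 were looked at after their values had been seen. The 6 MAGE and CSAG genes that start within 36 kb on either side (MAGEA2, MAGEA2B, MAGEA3, MAGEA6, CSAG2 and CSAG3) had 0 to 33 counts in each R1 library and 0 to 38 in each HEK293T library. In +Met all R1 libraries lay above all HEK293T libraries also for MAGEA2 and CSAG3, and for GABRQ and NSDHL, which start within 100 kb, as they did for 38.1% of all genes tested. In −Met+Hcy these 4 genes overlapped between the lines, and CETN2, also within 100 kb, had all R1 libraries above, as had 13.9% of all genes. MAGEA6 had all R1 libraries below in that medium, as had 17.8% of all genes.

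**Figure D3:**
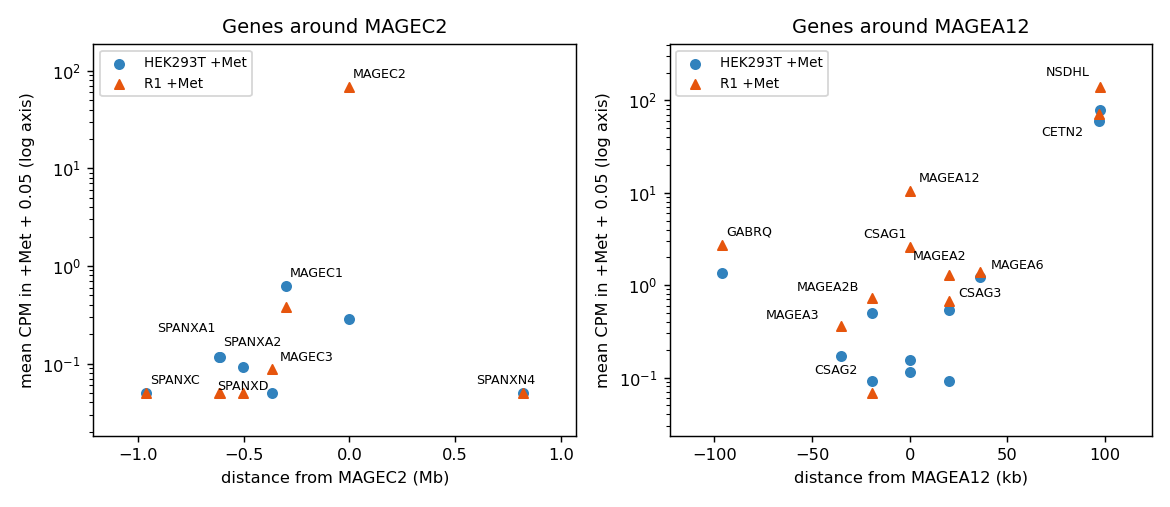
Mean CPM in +Met plus 0.05 (log axis) of the genes within 1 Mb of MAGEC2 (left, by the lowest coordinate of each gene) and within 100 kb of MAGEA12 (right, by start site); circles are HEK293T and triangles R1. MAGEC2 in R1 lies far above its neighbours, and MAGEA12 and CSAG1, whose starts are 22 bases apart, both lie low in HEK293T and higher in R1.

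The remaining 8 genes of A, B and C whose mean reached 1 CPM in a group were MAGEA1, MAGEA2, MAGEA6, MAGEA10, MAGEB2, MAGEB6, MAGEB18 and MAGEC1. MAGEA10 was at 0.125, 0.411 and 0 CPM in HEK293T in +Met and at 1.45, 2.39 and 1.97 CPM in R1, a scaled ratio of summed counts of 11.4. MAGEB6 was at 0.188, 0.206 and 0 CPM in HEK293T and at 2.44, 1.47 and 1.66 CPM in R1. MAGEA1, the founding member of the family, was at 0.250, 0.0685 and 0.184 CPM in HEK293T and at 1.45, 1.85 and 1.42 CPM in R1. In +Met the lines did not overlap for these 3 genes. MAGEB2 behaved alike, at 0.0626, 0.0685 and 0.184 CPM in HEK293T and 0.464, 1.20 and 0.711 CPM in R1. In −Met+Hcy all 4 genes overlapped between the lines, and without R1 replicate 3 MAGEA1 still did while MAGEA10, MAGEB2 and MAGEB6 did not. MAGEA1 was at 0.281, 0.118 and 0.855 CPM in HEK293T and at 0.875, 0.461 and 0 CPM in R1 in that medium, a ratio of mean CPM of 1.07, or 1.60 without replicate 3. For MAGEA10 that ratio was 1.25, or 1.53 without replicate 3. MAGEA6, which together with the near-identical MAGEA3 binds TRIM28 and directs it to the AMPK subunit PRKAA1, was alike in both lines in +Met, at 1.31, 1.03 and 1.16 CPM in HEK293T and 1.28, 1.52 and 1.18 CPM in R1. These ranges overlapped.

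Among the broadly expressed genes MAGED1 and MAGED2 had the highest levels. MAGED1 (ENSG00000179222), also called NRAGE, binds the neurotrophin receptor NGFR. It was at 327, 290 and 274 CPM in HEK293T in +Met and at 717, 542 and 756 CPM in R1. MAGED2, a regulator of salt transport in the fetal kidney, was at 142, 151 and 151 CPM in HEK293T and at 399, 479 and 362 CPM in R1. Neither gene overlapped between the lines in +Met, and in −Met+Hcy R1 replicate 3 was the exception, at 277 CPM for MAGED1 and 141 CPM for MAGED2. MAGED4 and MAGED4B are near-identical copies whose reads cannot be shared out with certainty, and their sum was 63.9 ± 8.57 CPM in HEK293T and 180 ± 18.7 CPM in R1 in +Met.

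MAGEE1, which binds the dystrobrevin complex, was at 7.45, 10.9 and 7.22 CPM in HEK293T and at 10.03, 4.35 and 9.0 CPM in R1 in +Met. The lines overlapped. MAGEL2, an imprinted gene that works with TRIM27 and the WASH complex, had 0, 2 and 0 counts in HEK293T in +Met and 0 in all 3 libraries in −Met+Hcy. In R1 it was at 3.94, 1.52 and 0.158 CPM in +Met and at 2.19, 3.43 and 0.107 CPM in −Met+Hcy. The third R1 library was the lowest in both media for this entry. With the other MAGEL2 entry added it was at 1.82 CPM in +Met, above the second library, and at 0.746 CPM in −Met+Hcy, still the lowest. In −Met+Hcy the summed count of R1 in the entry used was at least 27.3-fold higher than 3 counts over the HEK293T group, after division by the total counts of the groups.

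Per kilobase of canonical transcript, with MAGED4 and MAGED4B summed over their mean length, the order in R1 in +Met was MAGED1 at 247, MAGED2 at 202, the MAGED4 pair at 71.3, MAGEC2 at 34.2, MAGEF1 at 15.9 and MAGEA12 at 5.84 mean CPM per kb. In HEK293T in +Met it was MAGED1 at 109, MAGED2 at 72.1, the MAGED4 pair at 25.3 and MAGEF1 at 10.2, and MAGEC2 was at 0.119 mean CPM per kb. Of the genes given here that stand next to each other in the order, only MAGED1 and MAGED2 overlapped, in R1. In HEK293T other members stood between MAGEF1 and MAGEC2, MAGEE1 at 2.35 mean CPM per kb among them. MAGEC2 and MAGEA12 overlapped there.

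Of the 35 members, 27 had a summed count of at least 10 over the 12 libraries and were tested, and 17 of these reached a mean of 1 CPM in a group. The other 10 tested members were MAGEA2B, MAGEA3, MAGEA4, MAGEA8, MAGEA9, MAGEA9B, MAGEA11, MAGEB1, MAGEB17 and MAGEH1, and the highest of their group means was 0.781 CPM. MAGEA9 and MAGEA9B, near-identical copies, together had 0 counts in HEK293T in +Met, and 19, 12 and 15 in R1. Of the 8 untested members, MAGEB3, MAGEB4, MAGEB5, MAGEB10 and MAGEE2 had no count in any library, and MAGEB6B, MAGEB16 and MAGEC3 had 3, 2 and 4. A count of 0 in a group allows a summed count of up to 3.

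In +Met, 19 of the 27 tested members had all R1 libraries above all HEK293T libraries, and 0 had them all below. The same held for 38.1% of all 17162 genes tested above and 9.15% below. Nothing is read from this count, since MAGEC2, by which the family was chosen, is one of the 19, and MAGEA4, MAGEA8, MAGEA9, MAGEA9B, MAGEB1 and MAGEL2 had fewer than 10 counts in HEK293T and were tested only because of R1. In −Met+Hcy the members were 5 above and 4 below, against 13.9% and 17.8% of all genes, and without R1 replicate 3 they were 15 and 4, against 31.6% and 23.4%. Lower in R1 in −Met+Hcy were MAGEA6, MAGEC1, MAGEE1 and MAGEF1. With TMM scaling the members in +Met were 18 above and 0 below, against 22.2% and 20.7% of all genes, and in −Met+Hcy 8 above and 4 below, against 13.6% and 18.9%.

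**Figure D4:**
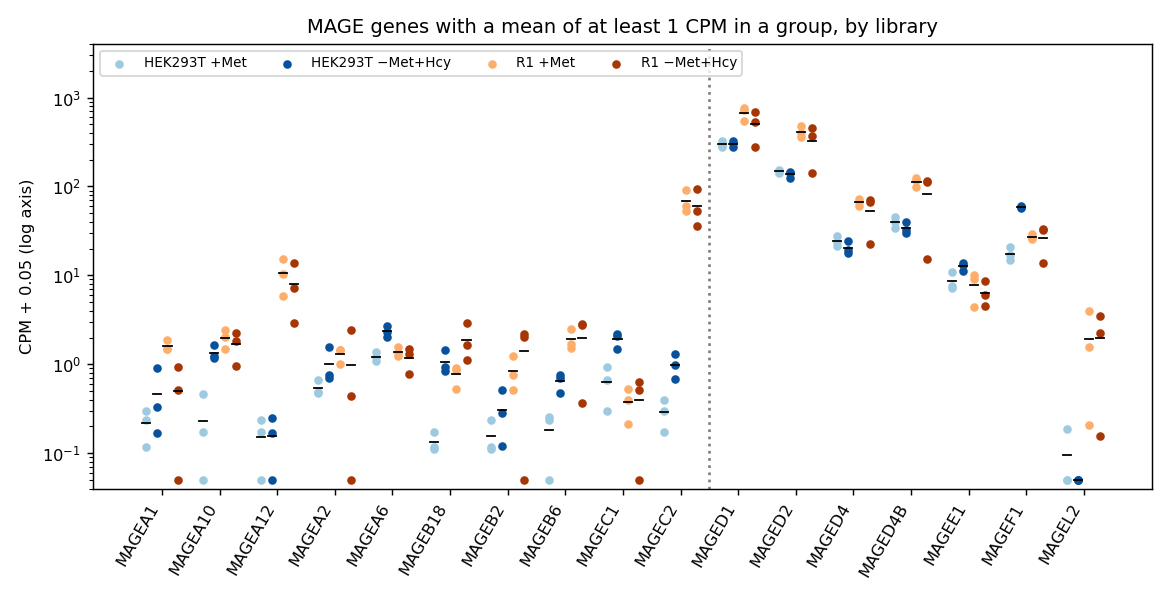
CPM plus 0.05 on a log axis of the 17 MAGE genes whose mean reached 1 CPM in a group, by library (points) with the group mean (black line), A, B and C genes left of the dotted line. By group mean, MAGEC2 and MAGEA12 in R1 stand above the other A, B and C genes, and MAGEF1 is highest in HEK293T −Met+Hcy.

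The response to the change of medium is a comparison that the choice of the family did not use. It was tested in each line with edgeR over all 17162 genes, and calls needed both an adjusted p under 0.05 and a log2 fold change of more than 1 in size. In HEK293T cells 2 of the 27 members were called higher in −Met+Hcy than in +Met, MAGEF1 and MAGEB18, and 0 lower, against 3.04% of all genes called higher and 1.59% lower. When R1 −Met+Hcy replicate 3, which is part of the shared estimate of the spread, was left out, 3 were called higher, with MAGEA10 added, against 6.76% of all genes higher and 3.56% lower. On the 6 HEK293T libraries alone 4 were called, with MAGEA10 and MAGEC1 added, against 7.87% higher and 3.8% lower. In that fit MAGEB18 and MAGEA10, with 4 and 8 counts in +Met, reached 10 counts only through −Met+Hcy, where they were higher. Nothing is read from that count. DESeq2 called 4, with MAGEA10 and MAGEC2 added, against 4.64% higher and 2.52% lower. With the replicate number as a block 1 was called, MAGEF1, against 2.01% higher and 1% lower, and by adjusted p alone MAGEF1 and MAGEB18 were, against 4.25% and 2.78%. In R1 cells 0 members were called in either direction by edgeR or DESeq2, and 1 member, MAGEB18, had an unadjusted p under 0.05. Of all genes edgeR called 0.00583% higher and 0% lower in R1, DESeq2 0.158% and 0.019%, and edgeR without R1 −Met+Hcy replicate 3 0.0176% and 0%. An unadjusted p under 0.05 was found in R1 for 5.68% of all genes higher and 2.11% lower, and in HEK293T, where it was found for 4 members higher and 0 lower, for 12.9% and 9.49%.

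MAGEF1 (ENSG00000177383, chr3:184710364-184712064) is a gene of 1 exon whose product joins the ligase NSMCE1 and directs it to MMS19, a carrier of iron-sulfur clusters. In HEK293T it was at 14.8, 20.6 and 16.8 CPM in +Met and at 60.03, 58.3 and 57.3 CPM in −Met+Hcy. In R1 it was at 29.1, 25.5 and 26.3 CPM in +Met and at 33.5, 32.2 and 13.7 CPM in −Met+Hcy. The media did not overlap in HEK293T, and in R1 they overlapped through −Met+Hcy replicate 3 alone. The log2 fold change by edgeR was 1.46 (SE 0.25, adjusted p = 0.0060) in HEK293T and −0.02 (SE 0.24, adjusted p = 0.982) in R1, or 0.24 without R1 replicate 3. MAGEF1 was called in HEK293T under all 19 alternatives, with a log2 fold change of 1.38 to 1.57 and an adjusted p of at most 0.0437.

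The responses of the lines to medium were compared by an interaction term. For MAGEF1 the difference, R1 minus HEK293T, was −1.48 on the log2 scale (SE 0.35, adjusted p = 0.212 by edgeR), which did not pass the threshold. It passed without R1 −Met+Hcy replicate 3 (−1.22, adjusted p = 0.00966) and in DESeq2 (−1.48, adjusted p = 0.00742), and over 18 alternatives the adjusted p ran from 0.00742 to 0.609. Of the 27 members 0 were called in the interaction by edgeR, and 3 had an unadjusted p under 0.05, all with a negative difference, MAGEF1, MAGEC2 and MAGEA10, against 4.62% of all genes with a positive and 5.05% with a negative difference. Of all genes 0% were called with a positive and 0.0583% with a negative difference by edgeR. Without R1 replicate 3 the shares were 0.305% and 1.08%, and in DESeq2 0.474% and 0.87%.

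MAGEB18, whose product binds the ligase LNX1, had 1, 1 and 2 counts in HEK293T in +Met and 20, 15 and 12 in −Met+Hcy. The media did not overlap, and the ratio of summed counts, scaled by total counts, was 11.9 (95% exact interval 4.34 to 45.3, for counting error only). The log2 fold change by edgeR was 3.18 (SE 0.71, adjusted p = 0.0206), and the call was lost when any 1 of the 6 HEK293T libraries was left out (adjusted p up to 0.0967). Over 19 alternatives, those among them, the log2 fold change was 2.94 to 3.55. In R1 its level was 0.812, 0.869 and 0.474 CPM in +Met and 1.60, 1.05 and 2.88 CPM in −Met+Hcy, with a log2 fold change of 1.43 (SE 0.58, adjusted p = 0.622), or 0.81 without replicate 3, the highest of these libraries.

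MAGEA10 and MAGEC2 had unadjusted p-values under 0.05 in HEK293T and did not pass after adjustment in edgeR. MAGEA10 was at 1.12, 1.59 and 1.18 CPM in HEK293T in −Met+Hcy, above all 3 +Met libraries, with a log2 fold change of 2.57 (SE 0.78, adjusted p = 0.0684 by edgeR and 0.00606 by DESeq2). MAGEC2 was at 0.631, 0.940 and 1.25 CPM in −Met+Hcy against 0.125, 0.342 and 0.245 CPM in +Met, a log2 fold change of 1.69 (SE 0.55, adjusted p = 0.0889 by edgeR and 0.0406 by DESeq2). In the HEK293T cells, therefore, even the highest library in −Met+Hcy had a MAGEC2 level far under that of R1. In R1 the log2 fold changes were −0.25 (SE 0.66) for MAGEA10 and −0.16 (SE 0.33) for MAGEC2, or −0.02 and 0.05 without replicate 3.

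The D genes did not pass the test in either line. In HEK293T cells the log2 fold change was −0.27 (SE 0.24) for MAGED1, −0.41 (SE 0.29) for MAGED2, −0.55 (SE 0.30) for MAGED4 and −0.52 (SE 0.47) for MAGED4B. In R1 cells it was −0.41 (SE 0.24) for MAGED1, −0.37 (SE 0.29) for MAGED2, −0.33 (SE 0.29) for MAGED4 and −0.51 (SE 0.47) for MAGED4B. The R1 values rested on replicate 3 in −Met+Hcy, and without it they were −0.17, −0.06, −0.01 and −0.03. A threshold that was not passed does not show that the media acted alike on them. In CPM the levels of MAGED1 in HEK293T overlapped between the media. After TMM scaling, which the test uses, all −Met+Hcy libraries lay below all +Met libraries in HEK293T for each D gene. The same held for 20.6% of all genes.

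**Figure D5:**
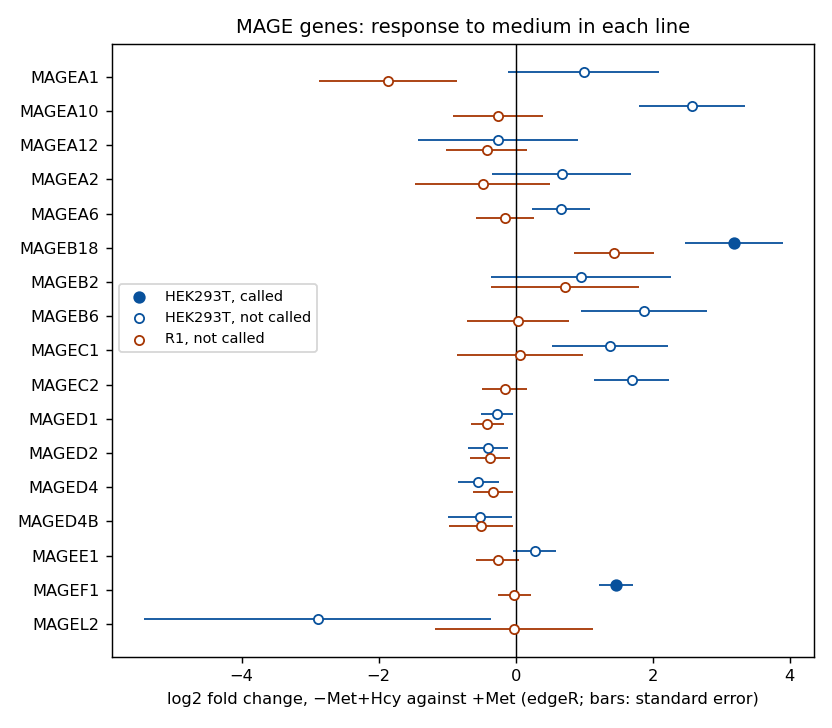
Log2 fold change of −Met+Hcy against +Met by edgeR (x axis, bars are the standard error) for the 17 MAGE genes whose mean reached 1 CPM in a group, in HEK293T (blue) and R1 (brown). Filled circles mark the called genes, MAGEF1 and MAGEB18 in HEK293T; no gene is called in R1.

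Of the 27 tested members 8 had fewer than 10 counts over the 6 HEK293T libraries and were tested only because of their counts in R1. Among the other 19 the log2 fold change in HEK293T was above 0 for 13, with a median of 0.96, against 51.9% and a median of 0.03 over all genes with at least 10 counts in that line. Among those above 0, MAGEA1, MAGEA3, MAGEA10, MAGEB2, MAGEB6, MAGEB18 and MAGEH1 had fewer than 10 counts in +Met. They reached 10 only through −Met+Hcy, where they were higher, so this count and its median are not read as a result. In R1 26 members had at least 10 counts, and 7 were above 0, with a median of −0.26, against 48.3% and −0.02. This rested on replicate 3 in −Met+Hcy, without which 14 of 26 were above 0, with a median of 0.07, against 50.5% and 0.0033 over all genes. Over all 27 the median in HEK293T was 0.28 when the 7 members with 0 counts in a medium group were held to the bound that 3 counts allow. In CPM, 10 members had all −Met+Hcy libraries above all +Met libraries in HEK293T and 0 below, against 38.6% and 9.8% of all genes. After TMM scaling they were 8 and 4, against 24.8% and 20.6%, and the 4 below were MAGED1, MAGED2, MAGED4 and MAGED4B. In R1 1 member was above, MAGEB18, and 1 below, MAGEA1, against 5.22% and 4.87% of all genes.

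Genes of the same fold under other names were set beside the members. NSMCE3, also called MAGEG1, is the MAGE subunit of the SMC5/6 complex and is likewise a gene of 1 exon. It was at 12.9, 12.8 and 12.9 CPM in HEK293T in +Met and at 35.5, 39.7 and 40.0 CPM in −Met+Hcy, with a log2 fold change of 1.28 (SE 0.22, adjusted p = 0.00673). In R1 it was at 12.9, 13.8 and 12.9 CPM in +Met and at 18.2, 17.1 and 8.79 CPM in −Met+Hcy, with a log2 fold change of 0.17 (SE 0.22, adjusted p = 0.787), or 0.38 without replicate 3. The media did not overlap in HEK293T, and in R1 they overlapped through −Met+Hcy replicate 3 alone. The difference between the lines was −1.11 (SE 0.31, adjusted p = 0.311). Its adjusted p was 0.0402 in DESeq2, and 0.0398 by edgeR without R1 −Met+Hcy replicate 3, where the difference was −0.91. TRO, or trophinin, was at 62.8 ± 11.4 and 61.9 ± 8.16 CPM in HEK293T and at 136 ± 9.95 and 116 ± 43.4 CPM in R1, for +Met and −Met+Hcy, and the last was 141 CPM without replicate 3. NDN, or necdin, had 1 count in all.

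Among 32 genes that work with MAGE proteins as ligases, complex members or substrates, 1 was called higher and 1 lower in HEK293T by edgeR, against 3.04% and 1.59% of all genes, and 3 higher and 5 lower had an unadjusted p under 0.05, against 12.9% and 9.49%. DESeq2 called 1 higher and 2 lower, against 4.64% and 2.52% of all genes. In R1 both tools called 0, where DESeq2 called 0.158% and 0.019% of all genes, and by edgeR 1 had an unadjusted p under 0.05 in each direction, against 5.68% and 2.11% of all genes. The median log2 fold change was −0.14 in HEK293T and 0.16 in R1, against 0.03 and −0.02 over all genes tested. The R1 median includes −Met+Hcy replicate 3, the library that stood apart, and no median without it is given here. MSX2, a homeobox factor bound by MAGED1, rose in HEK293T from 21.6, 24.8 and 23.8 CPM to 62.1, 66.2 and 56.2 CPM (log2 fold change 1.10, SE 0.20, adjusted p = 0.00716).

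TRIM28, the ligase of MAGEC2, had a log2 fold change of −1.08 in HEK293T (SE 0.36, adjusted p = 0.0975 by edgeR), which did not pass. It was called lower in DESeq2 (adjusted p = 0.0300), by edgeR on the 6 HEK293T libraries alone (adjusted p = 0.00037) and by edgeR without R1 −Met+Hcy replicate 3 (adjusted p = 0.00102). Its levels in HEK293T were 821, 725 and 622 CPM in +Met and 470, 429 and 359 CPM in −Met+Hcy. In R1 the log2 fold change of TRIM28 was −0.68 (SE 0.36, adjusted p = 0.631 by edgeR), or −0.30 without −Met+Hcy replicate 3. The difference between the lines was 0.41 (SE 0.51, adjusted p = 0.827 by edgeR). PJA1, a ligase that binds MAGED1, passed the adjusted p (0.0138) and not the threshold on size, with a log2 fold change of 0.74 (SE 0.15). A list of 22 genes, called silencing genes here, covered DNA methylation, its removal (TET1, TET2 and TET3) and germline gene repression. Of these, 21 were tested and 0 were called in either line by edgeR. An unadjusted p under 0.05 was found for 2 higher and 3 lower in HEK293T and 2 higher and 0 lower in R1, against 12.9%, 9.49%, 5.68% and 2.11% of all genes. The median log2 fold change was −0.14 in HEK293T and −0.01 in R1. SETDB1, a histone H3 lysine 9 methyltransferase recruited by TRIM28, had a log2 fold change of 0.82 in HEK293T (SE 0.15, adjusted p = 0.00723), from 76.2, 80.9 and 68.9 CPM to 171, 163 and 154 CPM. In R1 it was at 79.5, 77.7 and 91.04 CPM in +Met and at 121, 127 and 104 CPM in −Met+Hcy, with a log2 fold change of 0.54 (SE 0.15, adjusted p = 0.622 by edgeR and 0.000538 by DESeq2), and the difference between the lines was −0.27 (SE 0.20, adjusted p = 0.687 by edgeR). Between the lines, in CPM, all R1 libraries lay above all HEK293T libraries in +Met for 6 of the 21 silencing genes (DNMT3A, HDAC1, L3MBTL2, TET1, TET2 and TET3) and below for 3 (HDAC2, PCGF6 and RNF2), against 38.1% and 9.15% of all genes. In −Met+Hcy they were 0 above and 3 below (E2F6, PCGF6 and SETDB1), against 13.9% and 17.8%, and 3 and 7 without R1 replicate 3, against 31.6% and 23.4%. PCGF6, a subunit of a germline gene repressor complex, was at 58.9, 63.6 and 67.2 CPM in HEK293T and at 41.0, 55.6 and 42.5 CPM in R1 in +Met. DNMT1, the maintenance DNA methyltransferase, was at 362, 381 and 284 CPM in HEK293T in +Met and at 319, 178 and 344 CPM in R1, ranges that overlapped, as they did in −Met+Hcy. After TMM scaling all R1 libraries lay below all HEK293T libraries for DNMT1 in +Met, as they did for 20.7% of all genes. In −Met+Hcy its ranges still overlapped. DNMT3A, a de novo DNA methyltransferase, was at 8.26, 8.56 and 8.45 CPM in HEK293T in +Met and at 30.6, 17.6 and 29.1 CPM in R1, with no overlap. In −Met+Hcy it was at 6.45, 5.05 and 3.69 CPM in HEK293T and at 20.9, 23.9 and 3.995 CPM in R1, where the lines overlapped through replicate 3 of R1 alone.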

How the data were processed

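The authors sequenced RNA and quantified reads with kallisto 0.48.0, per the submitters' processing notes, against GRCh38 (the annotation release is not given in the sources used here). The deposited values are estimated counts, which the authors summed by Ensembl gene and made whole, with no scaling. CPM was computed here from column sums. Symbols are those of the table; coordinates, transcript lengths and GC content came from the GENCODE annotation of GRCh38 and promoter sequences from RefSeq.

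Genes with a summed count under 10 were left out, and 17162 of 23500 were tested in R 4.3.3 with edgeR 4.0.16 (TMM, quasi-likelihood, 4 group means, 8 residual degrees of freedom, Benjamini-Hochberg adjustment over all genes tested). SE is the size of the log2 fold change over the square root of F. DESeq2 1.42.0 and other settings were alternatives. Tests were tried on simulated data. Nothing says that replicates came from separate cultures, so p-values measure the spread between these libraries, which may be technical. Pairs of libraries in a group differed by more than sampling noise, with a chi-square per degree of freedom of 7.37 to 246. No batch is given.

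The members and lists were chosen with earlier results of these data known. Members whose mean reached 1 CPM in a group, or that were called, are given by library, and of the lists those called or known partners; SETDB1, PJA1, PCGF6 and DNMT genes were named after their values were seen. Intervals and limits of 0 cover counting error only. The values of 1 gene of the list of MAGE partner genes are not reported here; it is counted in the totals of that list.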

Additional observations from a re-analysis of the deposited data

Results flagged for a closer look

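A second MAGEL2 entry of the table, ENSG00000288188, was left out of the family by the rule that keeps 1 row per symbol. It held 33 counts, all in R1: 21 in +Met replicate 3 and 12 in −Met+Hcy replicate 3, the libraries in which the entry used had 2 and 2 counts, and it had 0 counts in the 6 HEK293T libraries. Both entries held MAGEL2 counts in these libraries, and with them summed R1 +Met replicate 3 was no longer the lowest R1 library in that medium. The 4 melanocytic markers summed to at most 5.17 CPM in a library (most abundant PMEL) and the 3 blood markers to at most 1.12 CPM (most abundant PTPRC). Of 4 breast basal markers KRT5, KRT14 and KRT6A were at 0 in all libraries, and the remaining one, TP63, was at 0.266 CPM in R1 −Met+Hcy replicate 3 and at 4.59 to 8.63 CPM elsewhere.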

How the results depend on the processing

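Over the alternatives 263 summary values stayed within 1.5 times the reported count, or for summed levels within 1 SD of the group, and 24 did not, and of the log2 fold changes of named members 901 kept their side of the threshold, 8 gained the call, 7 lost it and 44 changed sign; the cause was not tested. MAGE members called in HEK293T were 4 in DESeq2, against 4.64% of all genes higher and 2.52% lower, and 4 on the 6 HEK293T libraries alone. Nothing is read from the last count, since MAGEB18 and MAGEA10 passed the filter there only through −Met+Hcy. With the replicate block 1 was called, MAGEF1, where 2.01% of all genes were called higher and 1% lower, and MAGEB18 had an adjusted p of 0.0520. With 1 library left out 1 to 3 members were called. MAGEB18 was lost without any 1 HEK293T library, and MAGEA10 was gained without R1 −Met+Hcy replicate 3 or HEK293T +Met replicate 2. Without R1 −Met+Hcy replicate 3, 6.76% of all genes were called higher and 3.56% lower. For the other libraries left out no share of all genes is given here, so nothing is read from the change in those counts. On the 6 HEK293T libraries the partner genes called were 4, the other cancer-testis genes 5 and the silencing genes 1 (DNMT3A, lower), against 7.87% of all genes higher and 3.8% lower. Of those cancer-testis genes LUZP4, MAEL, SSX3 and TEX101 passed the filter only through −Met+Hcy, and nothing is read from their count. With 1 library left out the cancer-testis genes called were 0 to 2, and the silencing genes 0 to 1. Both were highest without R1 −Met+Hcy replicate 3, where 6.76% of all genes were called higher and 3.56% lower. The cancer-testis genes called there, MAEL and SSX3, were tested only because of HEK293T −Met+Hcy. By adjusted p alone 1 silencing gene, SETDB1, was called, against 4.25% of all genes higher and 2.78% lower. In the interaction DESeq2 called 1 member (MAGEF1) and 1 partner gene, against 0.474% of all genes with a positive and 0.87% with a negative difference. Leaving out 1 library gave 0 to 1 of each, the highest without R1 −Met+Hcy replicate 3, where the shares were 0.305% and 1.08%. With TMM scaling the sum of A, B and C in HEK293T +Met was 4.62, that of D, E, F, H and L 632 there and 1202 in R1 +Met, and 8 members lay above HEK293T in −Met+Hcy. With 1 library left out, members above in −Met+Hcy were 5 to 15 (15 without R1 replicate 3) and members below in +Met 0 to 1 (1 without HEK293T replicate 3).

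Deviations of same-numbered libraries correlated at 0.00339, −0.0667 and 0.484 in HEK293T and at 0.074, −0.47 and −0.0901 in R1. With 3 libraries in a group these values cannot decide whether replicate numbers pair the libraries. With the replicate block, signs turned for MAGEB6 (−0.21) and MAGEC1 (−0.20) in R1 and for MAGED2 (−0.00099) and MAGED4B (−0.16) in the interaction. With 1 library left out, log2 fold changes that turned ran from −0.11 to 1.44 for MAGEA1, −0.97 to 0.40 for MAGEA12 and −3.44 to 0 for MAGEL2 in HEK293T. In R1 they ran from −2.67 to 0.093 for MAGEA2, −0.49 to 0.11 for MAGEA6, −0.31 to 0.51 for MAGEB6, −0.51 to 0.66 for MAGEC1, −0.56 to 0.14 for MAGEC2, −0.19 to 0.24 for MAGEF1 and −0.75 to 1.07 for MAGEL2. In the interaction they ran from −0.82 to 0.54 for MAGEA12, −0.89 to 0.47 for MAGEB2, −0.40 to 0.10 for MAGED1, −0.26 to 0.35 for MAGED2, −0.0034 to 0.54 for MAGED4, −0.31 to 0.49 for MAGED4B and −0.025 to 3.95 for MAGEL2. None of these was called.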

Other observations

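Cancer-testis genes outside the MAGE family were read as well. Of 66 listed, 31 were tested, 14 were at 0 in all libraries, and 0 were called for medium in either line by edgeR. An unadjusted p under 0.05 was found for 7 in HEK293T and 3 in R1, all higher in −Met+Hcy, against 12.9% of all genes higher and 9.49% lower in HEK293T and 5.68% and 2.11% in R1. Nothing is read from these counts. In HEK293T LUZP4, MAEL, SSX2, SSX2B, SSX3 and TEX101 were tested only because of their counts in −Met+Hcy, and SSX2 and SSX2B have the same count in every library. In R1 SSX4 and SSX4B likewise have the same counts and rest on 18 in −Met+Hcy replicate 3, with at most 1 in each other R1 library. In +Met all R1 libraries lay above all HEK293T libraries for 5 of the 31 (ACTL8, CSAG1, CSAG3, DPPA2 and PRAME) and below for 1, SPANXN3, against 38.1% and 9.15% of all genes. In −Met+Hcy they were 3 above and 8 below, against 13.9% and 17.8%, and 5 and 12 without R1 replicate 3, against 31.6% and 23.4%. SPANXN3 had 12, 7 and 8 counts in HEK293T in +Met, 11, 14 and 16 in −Met+Hcy, and 0 in all 6 R1 libraries. PRAME, a substrate receptor of a cullin ligase, was the most abundant, at 32.3, 33.3 and 28.4 CPM in HEK293T in +Met, 51.3, 51.2 and 61.3 CPM in −Met+Hcy, and in R1 at 48.3, 61.8 and 46.7 CPM in +Met and 77.5, 58.6 and 43.95 CPM in −Met+Hcy, where the lines overlapped. DPPA2, a germline and early embryo gene on chromosome 3, was at 0.125, 0.137 and 0 CPM in HEK293T and at 3.54, 5.05 and 1.90 CPM in R1 in +Met, and the lines did not overlap in −Met+Hcy either. BRDT, a testis bromodomain gene, was at 2.00, 2.12 and 1.84 CPM in HEK293T and at 2.90, 1.79 and 2.13 CPM in R1 in +Met, ranges that overlapped. SPANXN3, DPPA2 and BRDT were chosen after their values were seen.

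Of the 35 members 7 are genes of 1 exon, MAGEF1 among them, and so is NSMCE3. Looked at after these values were known, 5.73% of the 419 tested coding genes of 1 exon, histone genes left out, were called higher in HEK293T in −Met+Hcy and 1.43% lower, with a median log2 fold change of 0.55. Of the 15357 with several exons 3.02% were called higher and 1.59% lower, with a median of 0.03. In R1 the medians were −0.14 and −0.0015. Of the other members of 1 exon, MAGEE1 had a log2 fold change of 0.28 (SE 0.31) in HEK293T, MAGEH1 one of 2.73 (SE 1.45) and MAGEL2 one of −2.89 (SE 2.54), the last on 2 counts, and none of these was called.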
